A study of Mus musculus with 4 samples.

Results

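The 4 genes Nr2f1, Nr2f2, Nr2f6 and Nr2e1, which encode the COUP-TF and Tailless orphan nuclear receptors, were examined in the frontonasal prominence (FNP) of mouse embryos. They were taken by gene symbol from a table of 33708 autosomal rows, and all 4 were found there, each in 1 row. The FNP forms the nose and snout. It was dissected at E10.5 from embryos of 29 somites on the FVB/NJ strain. There were 2 Smchd1+/+ embryos (WT, labelled as 1 female and 1 male) and 2 Smchd1MommeD43/MommeD43 embryos (MD43, both labelled male). MommeD43 is an ENU-induced missense allele of Smchd1, which encodes a silencing factor that acts on chromatin. The embryos numbered 2 of both genotypes shared a mother, by their embryo numbers, while those numbered 1 had a different mother each. A supplementary column of the study names WT replicate 2 as female, in which case sex and genotype cannot be told apart.

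The deposited table gives 1 log2 RPKM value per genotype (reads scaled to exon length and library size), into which the authors merged both libraries. No spread between embryos is therefore given for any value below, and no difference between genotypes was tested. Genes with 10 or more reads in either genotype are called measured genes. Read numbers were recovered from the values as the geometric mean of the 2 libraries of a genotype, at an implied depth of 22328791 reads for MD43 and 16055882 reads for WT. The error given after a log2 difference is a lower limit set by read counting alone (counting SE). Smchd1 itself, which checks no label because a missense change need not alter the transcript level, was at 3.30 log2 RPKM in MD43 and 3.31 in WT.

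Nuclear receptors are transcription factors that share a zinc finger DNA-binding domain and a ligand-binding domain, and orphan members are those for which no natural ligand was known when they were named. The COUP-TFs, Nr2f1 (COUP-TFI), Nr2f2 (COUP-TFII) and Nr2f6 (EAR2), bind repeats of the sequence AGGTCA and act mostly as repressors, partly by competing with other receptors for these sites and for RXR, their shared partner. Nr2f1 and Nr2f2 are known for their roles in forebrain patterning, eye and optic nerve development, neural crest derivatives and, for Nr2f2, veins and heart. Nr2e1 (Tailless, also Tlx) is expressed in the embryonic forebrain and retina and keeps neural progenitors proliferating. It is a repressor that binds a related core, AAGTCA.

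The members differed in their chromosomal surroundings and in the sequence before their start sites. Nr2f1 (ENSMUSG00000069171) lies on chromosome 13 from 78188973 to 78199757, Nr2f2 (ENSMUSG00000030551) on chromosome 7 from 70351944 to 70366735, Nr2f6 (ENSMUSG00000002393) on chromosome 8 from 71374123 to 71381960, and Nr2e1 (ENSMUSG00000019803) on chromosome 10 from 42561963 to 42583632, all on the minus strand of GRCm38 and all protein coding. Their summed exon lengths, which set the RPKM scale, were 5093, 8625, 2983 and 3711 bases. All 4 matched a RefSeq promoter window (GRCm38.p6). The bases before the start that lie outside the gene body are shown for Nr2f2, the member with the largest difference between genotypes, and for Nr2f6 and Nr2e1, which did not share its direction, to let their CpG content be compared. CpG dinucleotides are in capitals. The windows are chr7:70366747-70366996 for Nr2f2, chr8:71381961-71382202 for Nr2f6 and chr10:42583633-42583840 for Nr2e1, each read 5′ to 3′ on the minus strand.
Nr2f2: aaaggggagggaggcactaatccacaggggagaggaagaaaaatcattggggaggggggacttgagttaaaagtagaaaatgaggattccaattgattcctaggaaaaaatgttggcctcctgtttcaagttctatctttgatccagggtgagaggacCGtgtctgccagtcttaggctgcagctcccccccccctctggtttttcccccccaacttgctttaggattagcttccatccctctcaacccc
Nr2f6: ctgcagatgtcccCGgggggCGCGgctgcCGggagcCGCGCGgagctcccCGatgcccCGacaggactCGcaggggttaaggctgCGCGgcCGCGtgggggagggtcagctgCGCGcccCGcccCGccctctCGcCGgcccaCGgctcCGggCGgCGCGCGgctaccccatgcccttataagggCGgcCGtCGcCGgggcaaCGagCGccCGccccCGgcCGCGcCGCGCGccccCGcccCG
Nr2e1: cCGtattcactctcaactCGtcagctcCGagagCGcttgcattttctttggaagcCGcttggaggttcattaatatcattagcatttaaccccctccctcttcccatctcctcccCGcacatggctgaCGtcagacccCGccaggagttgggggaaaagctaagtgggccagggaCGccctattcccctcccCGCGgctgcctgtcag
Over the 250 bases before the start, Nr2f2 had 1 CpG, fewer than in most RefSeq promoters (median 6 over 32841 windows of this length), whereas Nr2f6 had 42 and Nr2e1 had 15. Of the Nr2f1 windows, the one before the outer start had 22 CpGs and the one before the inner start had 2. Both lie within the annotated gene body and are not shown. The Nr2f2 window belongs to the outer start of the gene and lies inside an exon of the opposite-strand transcript B130024G19Rik (70364910 to 70368619). The gene has further start sites inside its body, and the table does not separate its transcripts. Neither AGGTCA nor AAGTCA, searched on both strands without overlap between the motifs, occurred in the 250 bases before any of these starts. Of all windows of this length, 14.03% held AGGTCA and 13.1% held AAGTCA.

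Nr2f2 was lower in MD43 FNPs and Nr2f1 was lower to a lesser extent, while Nr2e1 was nearly equal in both genotypes and Nr2f6 was higher. The members thus did not move as a group, and their median log2 difference was -0.21, against 0.0057 over all 15377 measured genes. At a fold of 1.5, used here in place of a test, 1 of the 4 members was lower in MD43 (Nr2f2) and none was higher. Of all measured genes, 6.43% were lower and 4.24% higher by this fold. At 2-fold no member passed in either direction, against 2.47% lower and 1.64% higher of the measured genes.

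Nr2f2 had a level of 11.97 RPKM in WT and 6.22 RPKM in MD43, or 3.58 and 2.64 log2 RPKM, from 1658 and 1197 reads. The MD43 level was 1.93-fold lower, a log2 difference of -0.95 ± 0.04 (counting SE). The MD43 libraries held fewer Nr2f2 reads than the WT libraries even though they were 1.39 times as deep. A decrease of this size or larger was found for 423 of the measured genes (2.75%), many of them with few reads. Among the 6564 genes of 500 or more reads in both genotypes (deeply sequenced genes), a set chosen after the values were seen, it was found for 8 (0.122%), Nr2f2 included. In that set 0.625% of genes were lower by 1.5-fold or more, and 0.381% higher. In tissue of several cell types, fewer cells that express Nr2f2 and less Nr2f2 RNA per cell cannot be told apart.

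Nr2f1, the closest relative of Nr2f2, had 24.9 RPKM in WT and 18.7 RPKM in MD43 (4.64 and 4.22 log2 RPKM), from 2035 and 2121 reads. It was 1.33-fold lower, a log2 difference of -0.42 ± 0.03, and did not reach 1.5-fold. A decrease at least as large was found for 1600 measured genes (10.4%) and for 106 of the deeply sequenced genes (1.61%). The decrease of Nr2f2 exceeded that of Nr2f1 by 0.53 ± 0.05 on the log2 scale. Nr2f1 was 2.08 times the level of Nr2f2 in WT and 3.001 times in MD43. The RPKM of the pair summed to 36.9 in WT and 24.9 in MD43, a log2 difference of -0.57, and the share of Nr2f2 in that sum was 32.5% in WT and 24.99% in MD43.

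Nr2f6, the more divergent COUP-TF, which is known mainly from immune cells and the brainstem, was at 20.8 RPKM in WT and 25.1 RPKM in MD43 (4.38 and 4.65 log2 RPKM), from 997 and 1673 reads. It was 1.21-fold higher in MD43, a log2 difference of 0.27 ± 0.04. This value and the sum that follows are uncertain, because Nr2f6 shares 1622 of its 2983 exon bases with Ocel1 on the opposite strand. With Nr2f6, the 3 COUP-TFs summed to 57.7 RPKM in WT and 49.99 RPKM in MD43. An increase at least as large as that of Nr2f6 was found for 2011 measured genes (13.1%) and for 5.56% of the deeply sequenced genes. Nr2e1 was at 32.8 RPKM in WT and 32.9 RPKM in MD43 (5.04 log2 RPKM in both), from 1957 and 2726 reads. Its log2 difference was 0.0028 ± 0.03, and the interval that counting alone allows (95%) ran from -0.06 to 0.06. This interval leaves out the variation between embryos and does not show that the genotypes were alike.

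**Figure D1:**
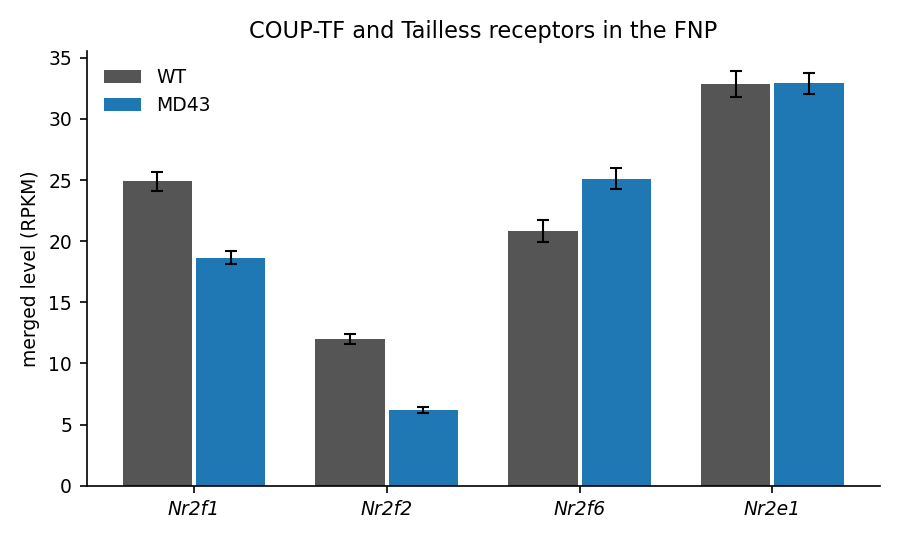
Bars show the level (RPKM, axis from 0) of each member in WT and MD43, 1 merged value per genotype, and error bars the 95% interval that read counting alone allows, without variation between embryos. Nr2f2 goes from 11.97 RPKM in WT to 6.22 in MD43, while Nr2e1 stands at 32.8 and 32.9.

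In WT the order of the levels was Nr2e1, Nr2f1, Nr2f6 and Nr2f2. In MD43, Nr2f6 lay above Nr2f1, by 0.43 ± 0.03 log2 RPKM, while in WT it lay below by 0.26 ± 0.04. The place of Nr2f6 in both orders is uncertain, because of the exon bases that it shares with Ocel1. Every neighbouring pair in both orders was further apart than its counting error, and whether these gaps exceed the spread between embryos is not known. In the plot of differences against reads, Nr2f2 lies below the lower 1.5-fold line, and the other members lie within the 1.5-fold lines.

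**Figure D2:**
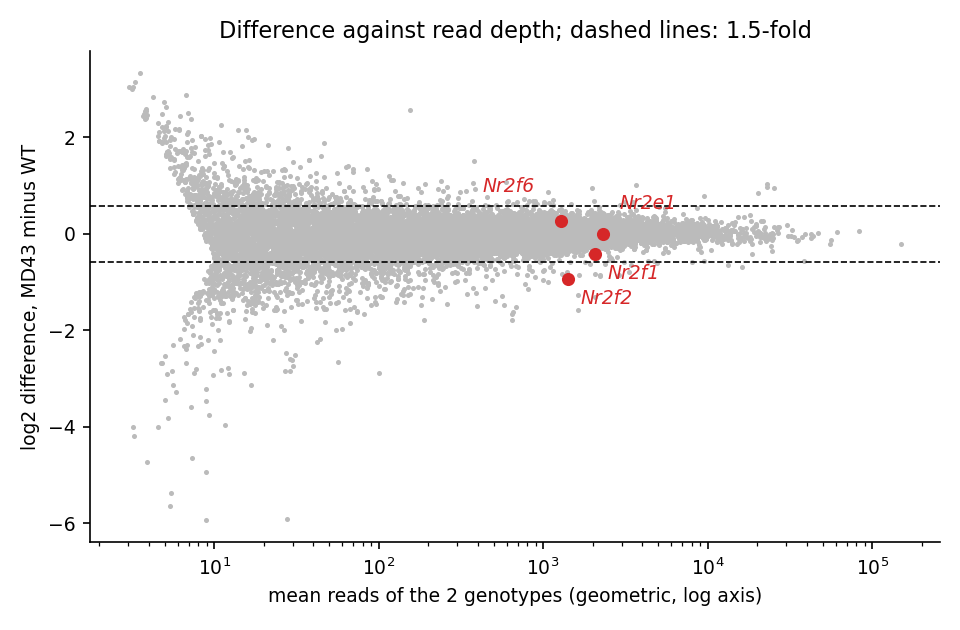
Each grey point is a measured gene, with the geometric mean of its reads over both genotypes on a log axis and the log2 difference of MD43 minus WT on the other. The members are in red. Nr2f2, at -0.95, is below the dashed line at 1.5-fold, and Nr2f1, at -0.42, is above it.

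The members are among the most abundant nuclear receptors of this tissue. Of 49 listed genes of the superfamily, a list added after the members' values had been seen, 47 were in the table and 35 were measured genes. By level in WT, Nr2e1 ranked 1, Nr2f1 ranked 2, Nr2f6 ranked 4 and Nr2f2 ranked 8. In MD43 Nr2e1 again ranked 1, Nr2f6 ranked 2, Nr2f1 ranked 4 and Nr2f2 ranked 13. The ranks of Nr2f6 are uncertain for the same reason as its level, the exon bases shared with Ocel1. Of the 35, 4 were at least 1.5-fold lower in MD43 (Nr2f2 included) and 2 (Pgr and Ppara, both of few reads) higher. The shares over all measured genes were 6.43% lower and 4.24% higher. The median log2 difference of the 35 was -0.07. The other 3 lower genes were Esrrg (an oestrogen-related receptor), Rora (a retinoic acid receptor-related orphan receptor) and Nr3c1 (the glucocorticoid receptor). Esrrg had 21.98 reads in WT and 11.7 in MD43, Rora 150 and 114, and Nr3c1 244 and 187, so that Nr2f2 was the most deeply sequenced of the 4.

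**Figure D3:**
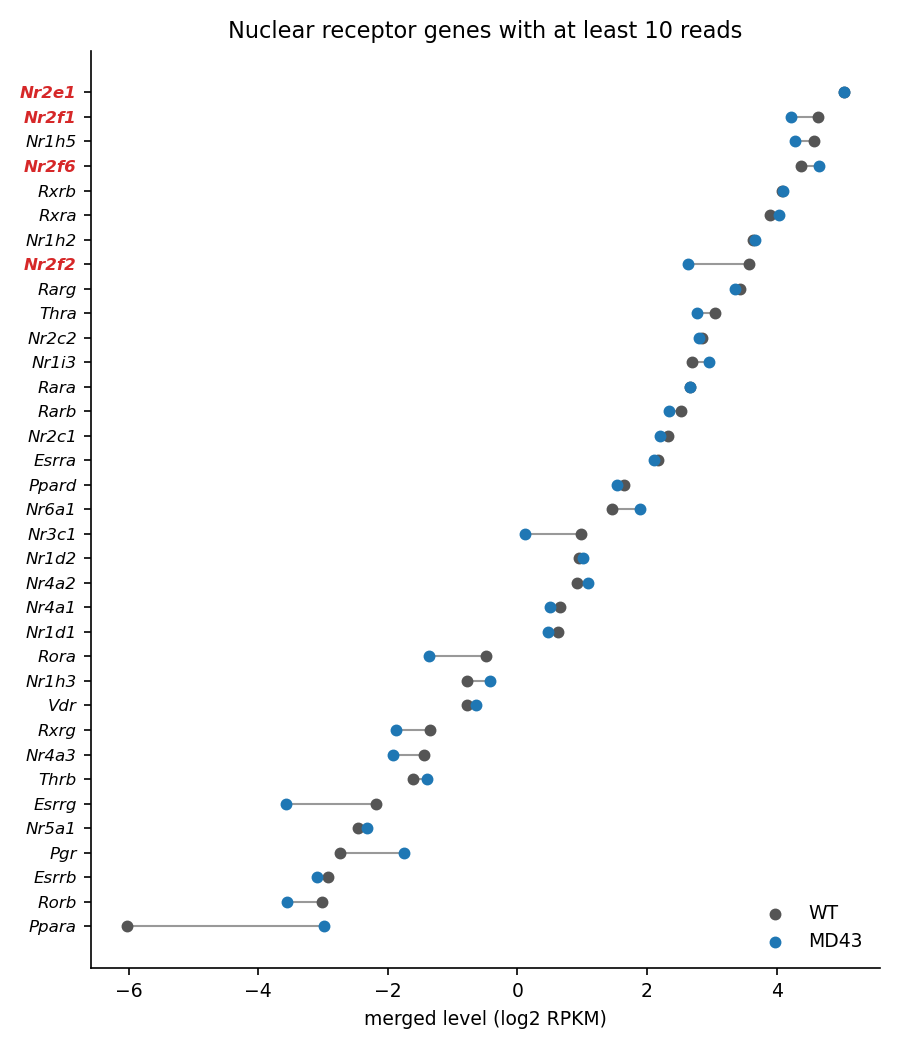
Each row is a measured nuclear receptor gene, ordered by its WT level, with grey points for WT and blue points for MD43 (log2 RPKM, 1 merged value each). The members are labelled in red. Nr2f2 moves from 3.58 to 2.64 log2 RPKM, the widest gap among the 8 receptors of highest WT level.

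The relatives and RXR partners of the members were then examined. Of 8 such genes, 5 were measured and none of these was past 1.5-fold in either direction, with a median log2 difference of -0.06. Among all measured genes, 6.43% were lower and 4.24% higher by this fold. Rxrb and Rxra, which form heterodimers with many nuclear receptors, were at 0.02 ± 0.04 and 0.14 ± 0.04 on the log2 difference scale. Nr2c2 (TR4), a testicular orphan receptor of the same subfamily (NR2), was at -0.06 ± 0.03. Nr2e3, Hnf4a and Hnf4g, the receptors of photoreceptors and of liver and gut, had fewer than 10 reads in both genotypes.

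Transcripts of the cofactors described for these receptors were mostly within 1.5-fold between genotypes. All 16 cofactor genes were measured. Of these, 1 was at least 1.5-fold lower, none was higher, and the median log2 difference was -0.04. The shares over all measured genes were 6.43% lower and 4.24% higher. Hdac2 and Hdac1, histone deacetylases, were at -0.02 ± 0.02 and 0.05 ± 0.03, and Kdm1a, the histone demethylase recruited by Tailless, at -0.03 ± 0.02. The lower gene was Zfpm2 (FOG2), a zinc finger cofactor that binds Nr2f2 and GATA factors, with only 15.4 reads in WT and 7.94 in MD43, a log2 difference of -1.43 ± 0.45.

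Among genes described as downstream of a member, several of the eye and brain were lower in MD43. Of 22 such genes, 21 were measured (Gfap was not). Of these, 6 were at least 1.5-fold lower, 1 was higher by that fold and 14 were within 1.5-fold. Over all measured genes, 6.43% were lower and 4.24% higher. The median log2 difference of the 21 was -0.15. Otx2, a head and retinal pigment epithelium regulator, went from 2030 reads in WT to 1842 in MD43 (-0.62 ± 0.03). Mitf, the pigment cell regulator, was at -1.01 ± 0.16, and Pax2, which marks the optic stalk, at -1.20 ± 0.21. Prox1, the regulator of lymphatic endothelium that is also expressed in neural progenitors and lens, was at -0.72 ± 0.12. Bhlhe22, a neuronal repressor, had 24.98 reads in WT and 3.16 in MD43 (-3.46 ± 0.61). The higher gene was Wnt7a, a Wnt ligand described as a target of Tailless, at 0.71 ± 0.10. The genes of highest mean level in this list were Ccnd1, which drives entry into the cell cycle (0.24 ± 0.02), then Otx2, then Sox9, a regulator of crest and cartilage (-0.18 ± 0.04). Pax6, a forebrain and eye regulator described downstream of both COUP-TFs and of Tailless, was at -0.35 ± 0.03. Which receptor acts on which of these genes in the FNP was not measured.

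The few measured non-coding rows beside Nr2f1 and Nr2f2 were lower in MD43, with limits from read number and shared exons. Around Nr2f2, 6 other rows lay within 100 kb, all of them non-coding. The 2 that were measured were both at least 1.5-fold lower, against 6.43% of all measured genes. Gm29683, a lincRNA on the same strand that lies 14092 bp from Nr2f2 and shares no exon with it, had 42.0 reads in WT and 15.5 in MD43, a log2 difference of -1.91 ± 0.30. B130024G19Rik, on the opposite strand, had 136 and 85.8 reads (-1.14 ± 0.14). However, it shares 643 exon bases with Nr2f2, which at the mean read density of Nr2f2 would hold 124 reads in WT and 89.2 in MD43, so its value is not a separate measurement if reads of both strands were counted. Around Nr2f1, 3 of 5 rows were measured and all 3 were lower, as were 7507 of all 15377 measured genes. Gm38604, 5805 bp from Nr2f1 with no shared exon, had 17.3 reads in WT and 3.46 in MD43 (-2.80 ± 0.60). It passed the minimum of 10 reads through WT alone. Of the rows below that minimum, 3110006O06Rik had 4 reads in both genotypes. C130051F05Rik had 1.34 reads in WT and 2.45 in MD43. A830082K12Rik, which starts within the Nr2f1 gene on the opposite strand, had 380 and 363 reads (-0.54 ± 0.07), more than the 49.1 and 51.2 reads that its 123 shared exon bases would hold. The protein-coding gene Fam172a was at -0.22 ± 0.05.

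Use of strand in the counting is not stated. In 66 cases of a gene with at least 95% of its exon bases inside exons of an opposite-strand gene with a WT level above 3 log2 RPKM, the difference of nested gene minus host had a median of 0.025 log2 RPKM, with quartiles of -1.96 and 0.71, and 37 of the 66 lay within 1 log2 unit of it. Values of overlapping genes are therefore given as uncertain. This applies to Nr2f6 too, which shares 1622 of its 2983 exon bases with Ocel1 on the opposite strand. Ocel1 was at 0.25 ± 0.05, close to the 0.27 of Nr2f6, from 711 reads in WT and 1174 in MD43. At the mean read density of Nr2f6, the shared bases would hold 542 reads in WT and 910 in MD43. How much of either value belongs to the other gene was not tested.

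The members that were not lower had only protein-coding genes measured within 100 kb. Nr2f6 lies in a gene-dense stretch, and all 10 rows within 100 kb were measured protein-coding genes. None was past 1.5-fold, and 9 of the 10 were higher in MD43, from 0.10 for Dda1 to 0.41 ± 0.24 for Ushbp1, with 1 (Use1) at -0.13. The 9 include Ocel1, which is not a separate measurement if reads of both strands were counted. Of all 15377 measured genes, 7870 were higher and 7507 lower. The median of the 10 was 0.19. Within 500 kb, a window added after the values were seen, 25 genes were measured, 9 lower and 16 higher, with a median of 0.10. Of these, 2 were at least 1.5-fold lower (Ccdc194 at -0.86 ± 0.40 and Jak3 at -0.64 ± 0.16) and none was higher by that fold. Over all measured genes, 6.43% were lower and 4.24% higher by it. Around Nr2e1 the 3 rows were Ostm1, whose start lies 190 bp from the Nr2e1 gene on the opposite strand, at -0.17 ± 0.07, Snx3 at -0.14 ± 0.03 and Afg1l at 0.18 ± 0.16. Within 500 kb, 7 genes were measured around Nr2e1, 5 lower and 2 higher, and only Gm15200 was past 1.5-fold (0.63 ± 0.30, higher in MD43, from 17.4 and 37.5 reads). Around Nr2f1 and Nr2f2 the wider window added no measured gene.

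**Figure D4:**
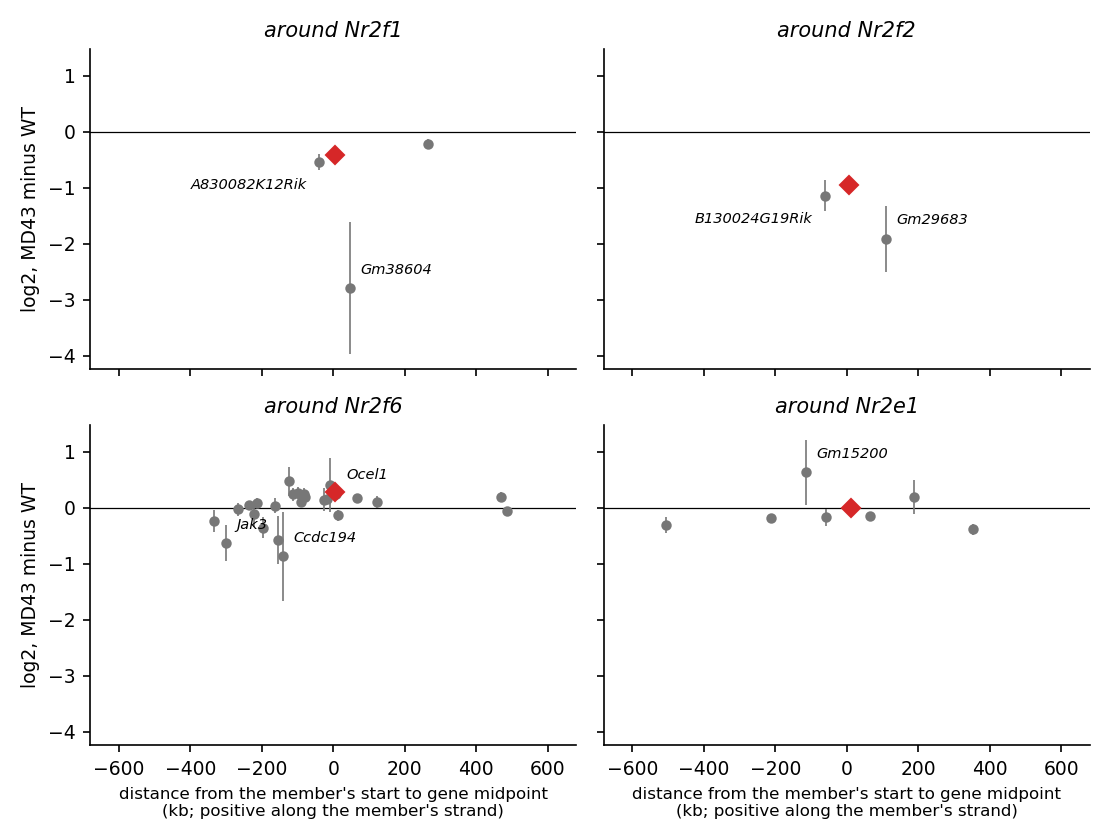
Points show the log2 difference of MD43 minus WT for measured genes within 500 kb of each member (grey) and for the member (red), against the distance in kb from the member's start to the midpoint of the gene, and bars the 95% interval that counting alone allows. Nr2f1 and Nr2f2 stand with few expressed neighbours, all below 0. The 25 neighbours of Nr2f6 lie on both sides of 0, from -0.86 to 0.47. Of these 25, 2 are at least 1.5-fold lower, against 6.43% of all measured genes.

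The FNP piece contained several tissues, and the levels of some of their markers also differed between the genotypes. Facial mesenchyme markers, which define the labelled tissue, were all present, and their RPKM summed to 174 in WT and 170 in MD43. Of these 10 genes 1 was at least 1.5-fold higher and none lower, with a median of -0.14. For this list and those that follow, the shares over all measured genes were 6.43% lower and 4.24% higher. Diencephalon and optic vesicle markers, which stand for tissue known to express Nr2f1 and Nr2f2, summed to 77.7 RPKM in WT and 58.3 in MD43. Of the 14, 13 were measured, 7 of these were at least 1.5-fold lower and none was higher, with a median of -0.68, led by Rax (-2.17 ± 0.24). Gbx2 was near 0 in both genotypes (9.17 and 6 reads). Telencephalon markers, which mark the main site of Nr2e1 expression, summed to 131 and 156 RPKM. Of the 9, 2 were at least 1.5-fold lower (Tbr1 at -1.60 ± 0.17 and Neurog2 at -1.06 ± 0.10) and none was higher. The median was 0.21, with 5 genes higher and 4 lower in MD43 at any size. Lhx2 was at 0.49 ± 0.02. First arch markers, of which 4 of the 5 measured were at least 1.5-fold lower, summed to 15.2 and 10.02 RPKM, and Hand2 was near 0 (1.34 and 1.90 reads). Endothelium markers, some of whose cells express Nr2f2, summed to 11.4 and 10.9 RPKM, and none of the 7 was past 1.5-fold. Young neuron markers summed to 97.5 and 97.0 RPKM, with none of 5 past 1.5-fold.

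Surface ectoderm and blood markers were higher in MD43. All 8 surface ectoderm markers were higher, 6 of them by at least 1.5-fold, and they summed to 120 RPKM in WT and 188 in MD43. The 5 red blood cell markers in the table summed to 3056 and 5810 RPKM, and 4 of them were at least 1.5-fold higher. By this fold 4.24% of all measured genes were higher. The part of these markers in the differences of the members was not tested.

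**Figure D5:**
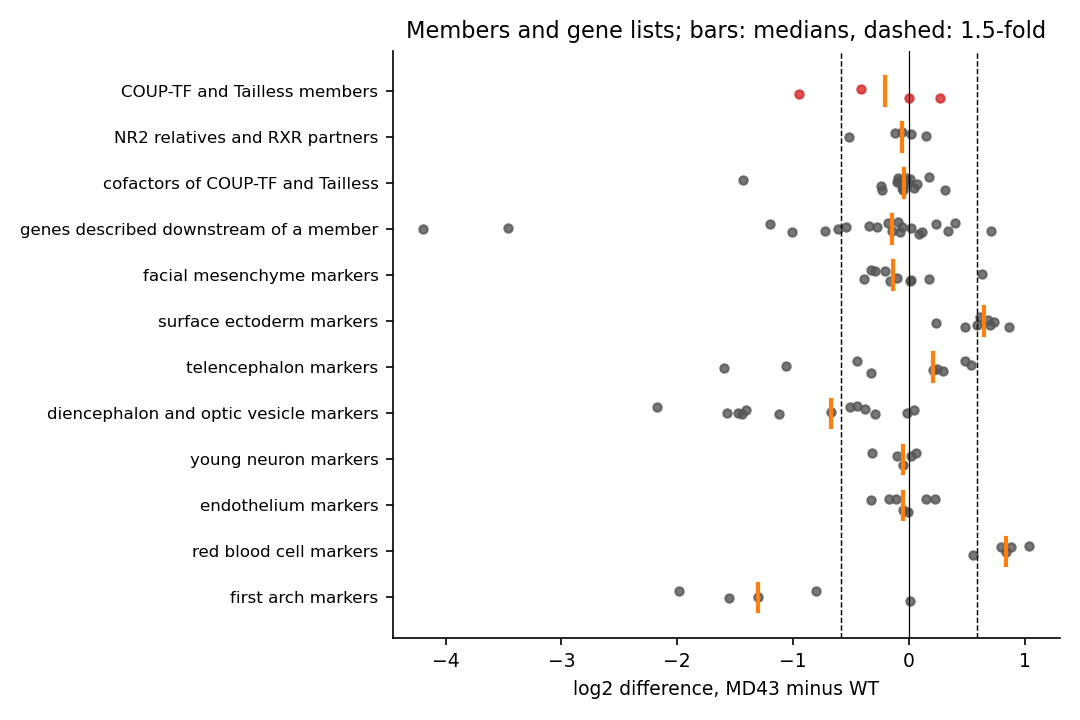
Each point is the log2 difference of MD43 minus WT of a measured gene, by list, with the members in red and medians as orange bars. The members spread from -0.95 to 0.27, the diencephalon and optic vesicle markers lie mostly below 0 (median -0.68), and the surface ectoderm markers all lie above 0.

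The genes whose values were most like those of each member were found by the Euclidean distance over the 2 genotype values (log2 RPKM) among protein-coding genes. With only 2 points this measures a similar level and a similar difference and nothing more. Nearest to Nr2f2 was Lhx5, a LIM homeobox gene of the diencephalon (distance 0.13), followed by Pfkfb3 (0.15) and 2510009E07Rik (0.19). Nearest to Nr2f1 were Gng2, Nr1h5 and H2-Ke6, at distances of 0.091 to 0.099. Nearest to Nr2f6 were Dohh, Pfdn4 and Lpcat1, and nearest to Nr2e1 were Cbfb, Cops7a and Tgfbr1, all within 0.022.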

How the data were processed

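RNA of FNPs from 2 WT and 2 MD43 embryos was sequenced from poly(A)-selected stranded libraries of 100 ng total RNA, per the labels. The authors trimmed the reads (Trim Galore 0.4.4, per the submitters' processing notes), mapped them with HISAT2 2.0.5 to GRCm38.p6 and quantified them in SeqMonk. The deposited values are log2 RPKM, which the authors scaled to library size and exon length and merged into 1 value per genotype. The deposited table also holds the authors' fold changes, averages and FDR values, which were not used. Sex chromosomes were not analysed here.

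Groups came from the sample titles. The members and lists were chosen with earlier results of these data known. Rows were joined to GENCODE M21 (GRCm38) on symbol and coordinates, and 33101 of 33708 matched. Genes without reads share a constant after correction for exon length, where an empty library stands for 0.9 reads. Relative to it, the squared value is the product of the reads of the 2 libraries, and 99.8% (MD43) and 99.7% (WT) of products from 100 to 1000 were whole, or 0.9 times a whole number, within 0.01. Reads are the square root of that product. The recovery was tested on simulated data. The counting SE is a lower limit and covers counting error only. A minimum of 10 reads in either genotype was applied, and a call is a difference of at least 1.5-fold, without a test. The test planned for single-library values was not run. The genes named are the members, list genes past 1.5-fold or of highest level (some list genes are not reported here), rows within 100 kb of a member and the 3 genes nearest to each member, with Pax6, Nr2e3, Hnf4a, Hnf4g, Gbx2, Hand2 Gfap and the receptors past 1.5-fold named after their values were seen. Alternatives were pseudocounts, centring, filters on reads, a 2-fold minimum and a wider window. Python 3.11.15, numpy 2.4.6, pandas 2.3.3 and matplotlib 3.10.9 were used.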

Additional observations from a re-analysis of the deposited data

How the results depend on the processing

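The members kept their directions under the 4 settings run on each, except that Nr2e1, at 0.0028, changed sign within its counting error when values were centred on the median of genes with at least 10 reads, which was 0.0057, or with at least 100 reads in both genotypes, which was 0.013. Of these 16 values, 15 moved by less than the 95% counting interval. With a pseudocount of 1 RPKM, Nr2f2 was at -0.85. With a 2-fold minimum, 0 members passed, since Nr2f2 was 1.93-fold lower. No other filter or centring changed the count of members. Over all genes the counts of 989 lower and 652 higher became 380 and 252 at 2-fold, 400 and 190 with at least 50 reads in a genotype, 2589 and 1536 without a filter, and 41 and 25 with at least 500 reads in both genotypes, the last chosen after seeing the data, as was the 500 kb window. With a pseudocount of 1 RPKM the medians were -0.30 for diencephalon and optic vesicle markers, 0.79 for red blood cell markers and -0.62 for first arch markers, since a pseudocount shrinks differences of low genes most. The other 30 of 33 values of list medians stayed within the counting interval.

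No paired analysis was possible because each value analysed merges both libraries of a genotype, and no single-library values were used here. Leaving out each replicate and limma over single libraries were not run for that reason, so the part of a single embryo in any difference was not tested. Depth limits Gm38604 and Zfpm2 most. Protein sequences of the members were not used here.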
